A study of Homo sapiens with 11 samples.

Results

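The genes described here are 40 genes of glycolysis and of the response to low oxygen, chosen by name from the 58735 genes of the count table. They are 23 glycolytic genes (the glucose and lactate transporters, the enzymes between them and the PFKFB regulators), 13 targets of the hypoxia-inducible factors (HIF) outside glycolysis, 2 pyruvate dehydrogenase kinases, and the HIF alpha subunit genes HIF1A and EPAS1. They were measured by mRNA sequencing in HEK293T, an embryonic kidney line that carries the SV40 large T antigen. There were 3 control libraries, 3 libraries of cells given 50 nM of an siRNA to NAE1 (called siNAE1), 3 of cells given 70 nM of an siRNA to UBE2M (siUBE2M) and 2 of cells given 60 nM of an siRNA to URM1 (siURM1). Transfected cells were collected after 48 h. The cells grew in high-glucose medium. All groups come from a single cell line, the siRNA amounts differ between the knockdowns, and the labels call the libraries biological replicates. By the labels the control received a control siRNA, and the methods of the study list a negative control siRNA, while a supplementary plot names these libraries HKWT. No protein was measured in these files.

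HIF is a transcription factor made of an alpha and a beta subunit. In the presence of oxygen the EGLN enzymes hydroxylate the alpha subunit, VHL binds it, and the CUL2 ubiquitin ligase marks it for degradation, so that HIF is controlled mainly as a protein and not as a transcript. CUL2 works only when the small protein NEDD8 is attached to it. NAE1 is a subunit of the enzyme that activates NEDD8 and UBE2M is the enzyme that passes NEDD8 to CUL2 and other cullins, while URM1 is a different ubiquitin-like protein. Among the targets of HIF are most enzymes of glycolysis and genes for blood vessel growth, collagen synthesis and mitophagy. Many of these genes also answer to MYC, to nutrient supply and to other stress pathways.

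Total counts were 11733163 to 15092821 in siNAE1 libraries and 13465165 to 16321391 in the other 8. Levels are given as CPM, counts scaled to a common library total with TMM factors, and each value is relative to that scaled total. The factors were 0.949 to 0.981 in siNAE1 libraries and 1.038 to 1.056 in control libraries, where they were highest. They lowered control values relative to knockdown values, so small differences between summed levels depend in part on the scaling. In these bulk samples a change in the share of cells that express a gene and a change in its RNA per cell cannot be told apart. The targeted transcripts fell: NAE1 from 98.8, 109 and 98.9 CPM in control libraries to 41.6, 42.5 and 35.1 CPM in siNAE1 libraries, UBE2M from 262, 267 and 264 CPM to 15.6, 15.6 and 19.1 CPM in siUBE2M libraries, and URM1 from 54.3, 50.9 and 55.3 CPM to 15.1 and 15.5 CPM in siURM1 libraries. The 5 HEK293T markers VIM, NEFL, NEFM, LIN28B and PAX2 were all detected, and their summed level was 385 to 428 CPM in control, 604 to 644 CPM in siNAE1, 489 to 570 CPM in siUBE2M, and 607 and 656 CPM in siURM1 libraries. At an adjusted p-value under 0.05, 4 of them rose and 0 fell in siNAE1 cells, and 3 rose and 0 fell in siURM1 cells. In siUBE2M cells 2 rose and 2 fell: VIM went from 174 to 336 CPM on average, while LIN28B went from 88.6 to 50.3 CPM and PAX2 from 10.0 to 5.34 CPM. The part of these shifts in the results was not tested. Of 6 hepatocyte markers, APOB and SERPINA1 had 0 counts in every library and the others at most 9, and of 2 leukocyte markers, CD3E had 0 counts and PTPRC at most 3. Of the fibroblast markers, DCN had at most 0.179 CPM, while COL1A1 had 16.7 to 29.3 CPM.

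HIF binds the DNA letters ACGTG or GCGTG, the core of the hypoxia response element. The promoter stretches printed below are examples that all hold a core, and members without a window or without a core are not printed. Promoter windows of RefSeq (GRCh38.p14) were found for 35 of the 40 members, and not for BNIP3L, NDRG1, VEGFA, SLC2A3 and SLC16A1. In the 250 bases before a start site, 24 of 65 member windows held ACGTG on either strand, or 36.9%, against 18.5% of all 35116 windows. GCGTG was in 35.4% of member windows and in 32.2% of all windows. The E-box CACGTG, a site of MYC and other factors that contains ACGTG, was in 12.3% of member windows and in 6.34% of all windows. ACGTG was in a window of 13 of 21 glycolytic members and of 6 of 10 non-glycolytic targets with windows, against 21.7% of the 27305 genes with a window. The 35 members had 65 windows, while the 27305 genes had 35116, so members had more windows per gene to hold a match. The stretches below run 5′ to 3′ on the strand of the gene. Capitals mark ACGTG and GCGTG or their complements CACGT and CACGC, and none of the stretches overlaps an exon of GENCODE v44.
LDHA (chr11:18394363-18394509, + strand): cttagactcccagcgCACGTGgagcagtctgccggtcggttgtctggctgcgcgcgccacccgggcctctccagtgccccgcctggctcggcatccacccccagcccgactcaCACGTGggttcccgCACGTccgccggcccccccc
PGK1 (chrX:78104022-78104084, + strand): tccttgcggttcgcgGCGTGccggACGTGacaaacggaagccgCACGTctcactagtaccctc
GAPDH (chr12:6535168-6535203, + strand): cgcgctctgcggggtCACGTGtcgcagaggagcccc
BNIP3 (chr10:131982008-131982081, - strand): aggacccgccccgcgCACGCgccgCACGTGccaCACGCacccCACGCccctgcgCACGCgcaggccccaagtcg
ADM (chr11:10304957-10304991, + strand): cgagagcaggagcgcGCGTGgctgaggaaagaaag

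The stretch of LDHA holds 2 E-boxes and 1 further ACGTG core, while that of PGK1 holds both core forms and no E-box. The windows of PGAM1 and PKM, which rose more than LDHA in siNAE1 cells, held neither core. Over the members tested, the median log2 fold change in siNAE1 cells was 0.63 for the 20 with ACGTG in a window and 0.74 for the 14 without. The same medians were 0.33 and 0.55 in siUBE2M cells and 0.30 and 0.49 in siURM1 cells. Members without ACGTG include some with GCGTG, since 29 of 35 members held either core in a window and 21 held ACGTG. These are matches of letters, and binding was not measured.

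In siNAE1 cells 22 of the 23 glycolytic transcripts were higher at an adjusted p-value under 0.05 and SLC16A3 alone did not pass. In siUBE2M cells 17 of the 23 rose and 3 fell, and in siURM1 cells also 17 rose and 3 fell. Of the 12 HIF targets outside glycolysis that were tested, 7 rose and 4 fell in siNAE1 cells, 7 rose and 2 fell in siUBE2M cells, and 6 rose and 2 fell in siURM1 cells. For these 12 targets alone, the counts that fell lay near the shares of all genes that did, which were 27.1%, 22.6% and 20.8%. The shares of all genes that rose were 27.6%, 22.7% and 20.8% in the same order. HIF1A, the gene of an alpha subunit, rose by 0.20 on the log2 scale in siNAE1 cells and did not pass in the others. All adjusted p-values here come from the quasi-likelihood fit of edgeR, with the Benjamini-Hochberg method applied over all 18368 genes tested. A gene is said to be called where its log2 fold change was also at least 1 in size, as in the thresholds the study used.

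Read against all genes, 30 of the 39 members tested were higher in siNAE1 cells at an adjusted p-value under 0.05, where 27.6% of all genes tested were, and 4 were lower, where 27.1% were. With the fold change threshold 11 members were called higher, against 5.3% of all genes, and 1 lower, against 8.61%. In siUBE2M cells 26 members were higher (22.7% of all genes) and 5 lower (22.6%), and 3 were called higher (3.22%) and 1 lower (3.89%). In siURM1 cells 23 members were higher (20.8% of all genes) and 5 lower (20.8%), and 3 were called, all higher (2.89%, with 4.73% called lower). The member left out was CA9, a membrane carbonic anhydrase, which had 0 counts in the control libraries and at most 5 in any library. Testing against a 1.2-fold change in place of the threshold on the estimate moved the called members from 12 to 28 in siNAE1 cells, from 4 to 19 in siUBE2M cells and from 3 to 21 in siURM1 cells. The 3 comparisons share the control libraries.

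The median log2 fold change of the glycolytic members was 0.76 in siNAE1 cells, with a standard deviation of 0.08 over the 3 libraries, 0.36 in siUBE2M cells (SD 0.05, n = 3) and 0.49 in siURM1 cells (SD 0.01, n = 2). For the non-glycolytic targets it was 0.48 (SD 0.14), 0.50 (SD 0.02) and 0.15 (SD 0.04) in the same order. The SD of a median is over single knockdown libraries, each set against the mean of the control libraries on log2 CPM. It leaves out the spread among the control libraries. All genes tested had medians of -0.002, 0.007 and -0.021. The difference between the lists was not tested. The non-glycolytic median in siURM1 cells was 0.27 with no filter on low counts and 0.26 with DESeq2, and in siUBE2M cells it was 0.36 on log2(FPKM + 1), beside 0.33 for the glycolytic members on that scale. Together the 23 glycolytic transcripts took up 7039 ± 150 CPM in control cells (SD, n = 3), 12060 ± 502 in siNAE1 cells (SD, n = 3), 8315 ± 420 in siUBE2M cells (SD, n = 3) and 8789 ± 32.2 in siURM1 cells (SD, n = 2). The 13 non-glycolytic targets took up 666 ± 9.97, 886 ± 18.0, 682 ± 7.18 and 713 ± 6.19 CPM in the same order. Without NDRG1 the other 12 took up 615 ± 12.9, 540 ± 14.6, 590 ± 9.81 and 571 ± 1.00 CPM, with siNAE1 and siURM1 libraries below every control library and 1 siUBE2M library level with the lowest control. Without VEGFA as well, the other 11 took up 412 ± 21.7, 471 ± 15.2, 497 ± 11.8 and 449 ± 10.6 CPM, with every knockdown library above every control library, so the direction of the sum turned on these 2 genes.

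**Figure D1:**
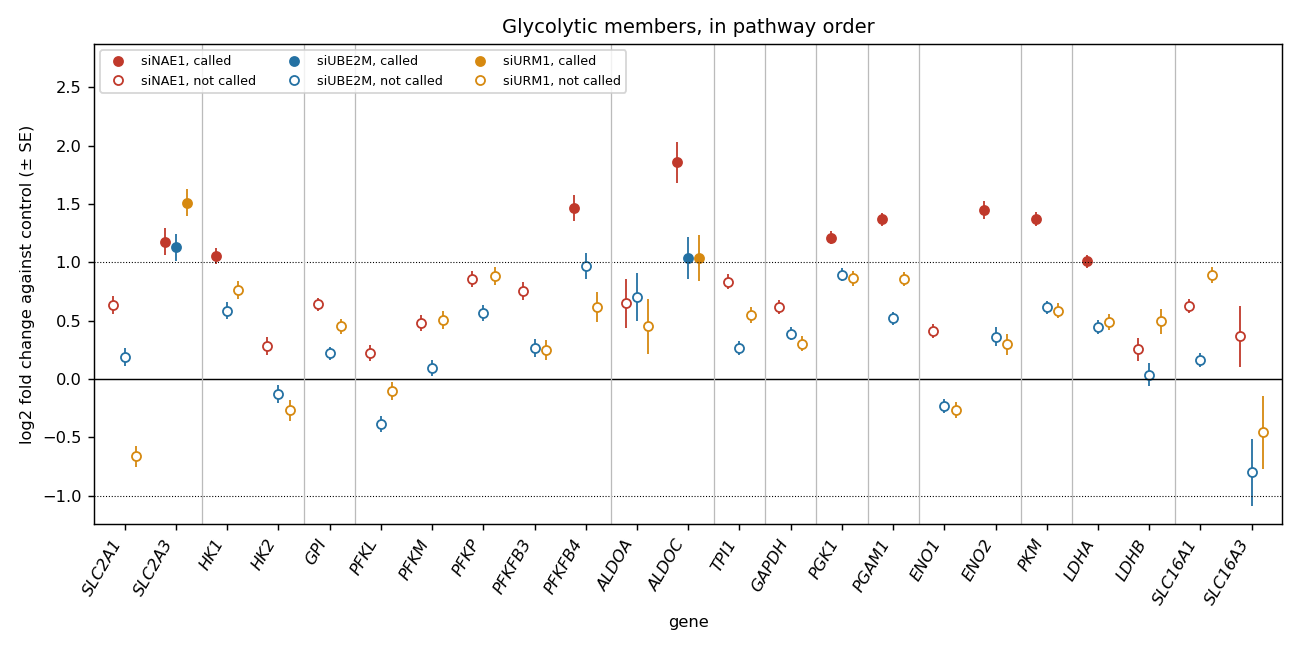
Log2 fold change against control (± SE, edgeR) of the 23 glycolytic members, ordered from glucose uptake on the left to lactate export on the right, in siNAE1, siUBE2M and siURM1 cells. Filled points were called (adjusted p under 0.05 and an absolute value of at least 1, dotted lines), open points were not, and the siNAE1 values are above 0 for all 23 genes, from 0.22 for PFKL to 1.86 for ALDOC.

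Glucose enters the cell through SLC2A1, the widespread transporter GLUT1, and SLC2A3, the high-affinity transporter GLUT3. SLC2A3 had 10.2, 11.0 and 12.7 CPM in control libraries, 26.9, 27.4 and 22.4 in siNAE1, 26.2, 25.6 and 22.4 in siUBE2M, and 31.7 and 32.9 in siURM1 libraries. Every knockdown library lay above every control library. Its log2 fold changes were 1.18, 1.13 and 1.51 (SE 0.11, 0.11 and 0.12), all called (adjusted p = 1.6e-10, 7.6e-10 and 6.7e-12). On log2(FPKM + 1) the values for siNAE1 and siUBE2M were 0.85 and 0.82, below the fold change threshold.

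SLC2A1 moved in opposite directions. It had 41.7, 42.7 and 43.7 CPM in control libraries, 68.6, 67.1 and 62.9 in siNAE1, 49.6, 46.5 and 50.1 in siUBE2M, and 26.6 and 27.5 in siURM1 libraries. None of these groups overlapped the control. It rose by 0.63 in siNAE1 cells (SE 0.07, adjusted p = 1.5e-08) and by 0.19 in siUBE2M cells (SE 0.08, adjusted p = 0.04), and it fell by 0.66 on the log2 scale in siURM1 cells (SE 0.09, adjusted p = 4.3e-07). Measured per length (FPKM), SLC2A3 made up 16.9% ± 1.25 of the sum of both transporters in control cells (SD, n = 3), 22.8% ± 1.22 in siNAE1 cells (SD, n = 3), 28.0% ± 2.22 in siUBE2M cells (SD, n = 3) and 47.8% ± 0.103 in siURM1 cells (SD, n = 2).

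Hexokinase traps glucose in the cell. HK1, the housekeeping form, had 86.9, 84.9 and 84.1 CPM in control libraries and 171, 179 and 182 CPM in siNAE1 libraries. It had 117, 128 and 139 CPM in siUBE2M libraries and 156 and 133 CPM in siURM1 libraries, all above the control. It was called in siNAE1 cells, at 1.06 (SE 0.07, adjusted p = 4.5e-14), and rose by 0.59 and 0.76 in siUBE2M and siURM1 cells. On log2(FPKM + 1) the siNAE1 value was 1.00 when rounded and fell short of the threshold.

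HK2, the inducible form and the more abundant of the pair per length in control cells (14.9 FPKM against 13.4 for HK1), moved in opposite directions in siNAE1 and siURM1 cells. It had 92.8, 85.9 and 94.4 CPM in control libraries, 112, 118 and 103 in siNAE1, 87.5, 84.5 and 77.7 in siUBE2M, and 83.6 and 67.4 in siURM1 libraries. The siNAE1 libraries lay above the control, the siURM1 libraries below it, and those of siUBE2M overlapped it. Its log2 fold changes were 0.28 (SE 0.08, adjusted p = 0.002) and -0.27 (SE 0.09, adjusted p = 0.013) in siNAE1 and siURM1 cells and -0.13 (adjusted p = 0.18) in siUBE2M cells. HK1 took 47.4% ± 1.28 of the hexokinase FPKM in control cells (SD, n = 3), 60.7% ± 1.98 in siNAE1, 59.7% ± 3.45 in siUBE2M (SD, n = 3 each) and 64.9% ± 0.831 in siURM1 cells (SD, n = 2).

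GPI, the isomerase of the next step, rose by 0.64, 0.22 and 0.45. Phosphofructokinase, the main control point of the pathway, has a liver, a muscle and a platelet form. PFKL, the most abundant of them per length in control cells (18.8 FPKM), had 184, 161 and 162 CPM in control libraries, 184, 192 and 217 in siNAE1, 131, 126 and 132 in siUBE2M, and 162 and 154 in siURM1 libraries. The siUBE2M libraries lay below the control, and those of siNAE1 and siURM1 overlapped it. PFKL fell by 0.38 in siUBE2M cells (SE 0.07, adjusted p = 2.3e-05), rose by 0.22 in siNAE1 cells (SE 0.07, adjusted p = 0.0057), and was at -0.10 in siURM1 cells (adjusted p = 0.3). PFKP rose in each knockdown, by 0.85, 0.56 and 0.88, and took 29.5% ± 1.97 of the phosphofructokinase FPKM in control cells (SD, n = 3) and 37.6% ± 1.09, 41.1% ± 1.37 (SD, n = 3 each) and 40.7% ± 0.711 (SD, n = 2) in siNAE1, siUBE2M and siURM1 cells. PFKM rose by 0.48 and 0.51 in siNAE1 and siURM1 cells and was at 0.10 in siUBE2M cells (adjusted p = 0.25). SENP1 overlaps PFKM on the opposite strand.

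PFKFB3 and PFKFB4 make and remove the sugar phosphate that activates phosphofructokinase. PFKFB4 had 9.04, 9.33 and 8.38 CPM in control libraries and 24.6, 24.6 and 24.9 CPM in siNAE1 libraries. It had 16.3, 17.5 and 18.6 CPM in siUBE2M libraries and 14.8 and 12.6 CPM in siURM1 libraries. All knockdown libraries lay above the control, and the groups followed each other without overlap in the order siNAE1, siUBE2M, siURM1. The log2 fold changes were 1.47 (SE 0.11, adjusted p = 1.4e-12), which was called, 0.97 and 0.62. PFKFB3 rose by 0.76, 0.26 and 0.25.

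Aldolase splits the sugar in the middle of the pathway. ALDOC, the brain form, had 3.92, 5.59 and 3.78 CPM in control libraries, 16.0, 16.1 and 16.2 in siNAE1, 7.65, 7.46 and 12.2 in siUBE2M, and 8.66 and 9.62 in siURM1 libraries. All knockdown libraries were above the control, and siNAE1 was above the others. Its log2 fold changes of 1.86, 1.04 and 1.04 (SE 0.17, 0.18 and 0.20) were called (adjusted p = 1e-10, 1.8e-05 and 6.6e-05). The siUBE2M value was 0.77 without siUBE2M replicate 3 and 0.96 and 0.94 without control replicates 1 and 3, and the siURM1 value was 0.97 without siURM1 replicate 2 and 0.97 and 0.95 without the same control libraries, all below the threshold. On log2(FPKM + 1) the values were 0.69 and 0.72, and on log2(FPKM + 0.1) the siUBE2M value was 0.97. ALDOC lies within the gene AC005726.1 on the same strand, which had 6.6 CPM on average, and fragments that match both may not have been assigned to either. ALDOA, usually the main aldolase, was listed at 2.95 to 6.72 CPM, next to 4.68 CPM on average for the overlapping AC093512.2, so its level is uncertain. ALDOA had log2 fold changes of 0.65 and 0.70 (adjusted p = 0.01 and 0.0065) in siNAE1 and siUBE2M cells and of 0.45 in siURM1 cells (adjusted p = 0.13).

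**Figure D2:**
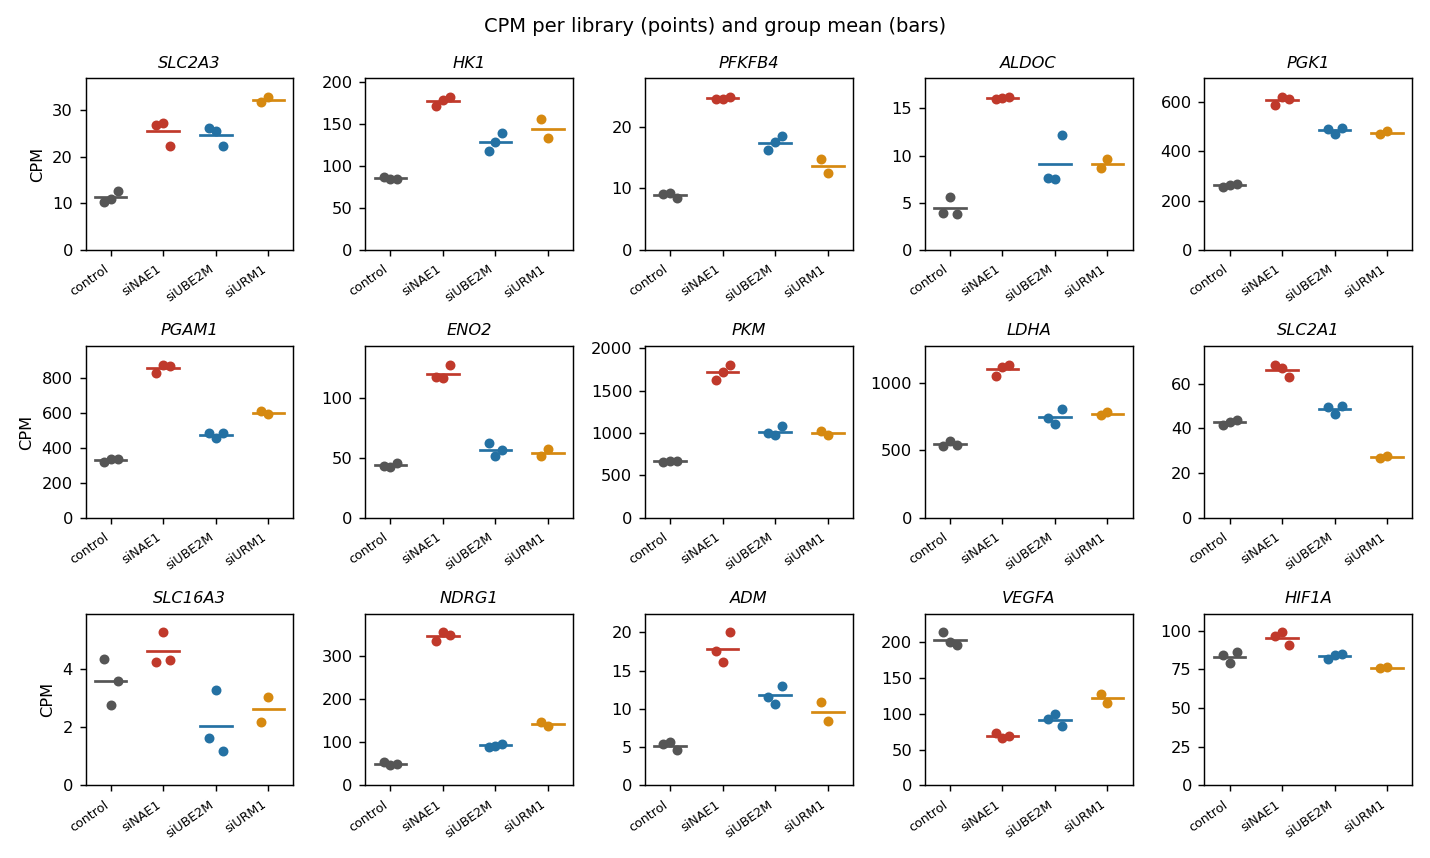
CPM of 15 genes in each of the 11 libraries (points, linear axes from 0), with the group means as bars, for control, siNAE1, siUBE2M and siURM1 cells. The siNAE1 points lie above every other point for PGK1, PGAM1, PKM, LDHA, ENO2 and NDRG1 and below every other point for VEGFA, while SLC2A3 is highest in siURM1 cells.

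The lower part of the pathway, which yields ATP and pyruvate, rose in siNAE1 cells at every step. TPI1 and GAPDH, which form and oxidise the triose phosphates, rose by 0.83 and 0.62 in siNAE1 cells, by 0.27 and 0.39 in siUBE2M cells and by 0.55 and 0.30 in siURM1 cells. PGK1, the kinase that follows, had 254, 263 and 267 CPM in control libraries, 587, 621 and 611 in siNAE1, 492, 470 and 495 in siUBE2M, and 468 and 483 in siURM1 libraries. No knockdown group overlapped the control, and siUBE2M and siURM1 overlapped each other. PGK1 was called in siNAE1 cells (log2 fold change 1.21, SE 0.06, adjusted p = 5.3e-18) and rose by 0.89 and 0.86 in the others.

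PGAM1, a mutase, had 322, 338 and 338 CPM in control libraries, 830, 878 and 868 in siNAE1, 488, 459 and 483 in siUBE2M, and 611 and 594 in siURM1 libraries. The 4 groups did not overlap, with siURM1 between siUBE2M and siNAE1. The log2 fold changes were 1.37 (SE 0.06, adjusted p = 2.6e-19), which was called, 0.52 and 0.86.

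The enolases parted. ENO1, the abundant form (400 FPKM in control cells), had 2111, 2197 and 2074 CPM in control libraries, 2676, 2826 and 2973 in siNAE1, 1769, 1714 and 1947 in siUBE2M, and 1812 and 1732 in siURM1 libraries. The siNAE1 libraries were above the control and the others below it. ENO1 rose by 0.41 in siNAE1 cells (SE 0.06, adjusted p = 4.7e-07) and fell by 0.23 in siUBE2M cells and by 0.26 in siURM1 cells (adjusted p = 0.0015 for both). ENO2, the neuronal form, had 43.4, 42.6 and 46.1 CPM in control libraries and 117, 116 and 128 CPM in siNAE1 libraries. It had 62.1, 51.6 and 56.4 CPM in siUBE2M libraries and 51.3 and 57.1 CPM in siURM1 libraries, above the control and below siNAE1. It was called in siNAE1 cells (1.45, SE 0.08, adjusted p = 2.1e-16) and rose by 0.36 and 0.30 in siUBE2M and siURM1 cells. ENO2 remained a small share of the enolase FPKM, at 2.49% ± 0.166 in control (SD, n = 3), 4.99% ± 0.152 in siNAE1, 3.73% ± 0.372 in siUBE2M (SD, n = 3 each) and 3.64% ± 0.374 in siURM1 cells (SD, n = 2).

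PKM, pyruvate kinase, had 658, 664 and 667 CPM in control libraries, 1630, 1714 and 1806 in siNAE1, 998, 972 and 1079 in siUBE2M, and 1017 and 975 in siURM1 libraries. The siNAE1 libraries were highest, and those of siUBE2M and siURM1 overlapped each other above the control. It was called in siNAE1 cells (1.37, SE 0.06, adjusted p = 5.6e-19) and rose by 0.62 and 0.59 in the others. The counts do not separate the spliced forms of PKM.

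Lactate dehydrogenase turns pyruvate into lactate. LDHA, its main form here (87.5 FPKM in control cells), had 534, 566 and 541 CPM in control libraries, 1048, 1118 and 1133 in siNAE1, 739, 693 and 803 in siUBE2M, and 757 and 780 in siURM1 libraries. Every knockdown library was above the control and every siNAE1 library above the rest. The log2 fold changes were 1.01 (SE 0.06, adjusted p = 2.3e-15), 0.45 and 0.49. The call in siNAE1 cells sits on the threshold, and the value was between 0.98 and 1.00 without control replicate 1, siNAE1 replicate 2 or siNAE1 replicate 3 and under 4 other settings. LDHB rose by 0.49 in siURM1 cells and by 0.25 in siNAE1 cells (adjusted p = 0.03), and was at 0.04 in siUBE2M cells (adjusted p = 0.78). LDHA took 80.1% ± 1.46 of the lactate dehydrogenase FPKM in control cells (SD, n = 3), 87.1% ± 0.767 in siNAE1, 84.2% ± 0.313 in siUBE2M (SD, n = 3 each) and 80.1% ± 3.34 in siURM1 cells (SD, n = 2).

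Lactate leaves through SLC16A1 (MCT1) and SLC16A3 (MCT4, the hypoxia-inducible form). SLC16A1 rose by 0.62, 0.16 and 0.89, and made up 98.9% to 99.7% of the FPKM of both transporters in each library. The antisense gene SLC16A1-AS1 overlaps it. SLC16A3 was low, with 4.34, 2.76 and 3.59 CPM in control libraries, 4.22, 5.24 and 4.30 in siNAE1, 1.62, 3.27 and 1.19 in siUBE2M, and 2.18 and 3.04 in siURM1 libraries. All 3 knockdowns overlapped the control. Its log2 fold changes were 0.37 (adjusted p = 0.25), -0.80 (SE 0.29, adjusted p = 0.023) and -0.46 (adjusted p = 0.26). CSNK1D, which had 302 CPM on average, overlaps SLC16A3 on the opposite strand, and the strand option of the counting is not given in the sources used here.

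**Figure D3:**
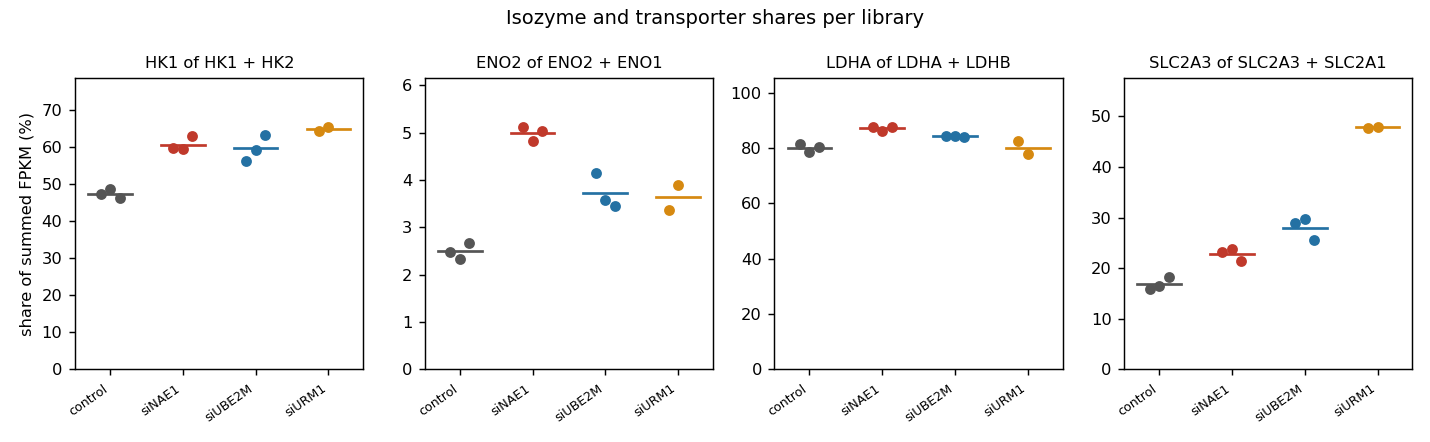
Share (%) of HK1 in HK1 + HK2, ENO2 in ENO1 + ENO2, LDHA in LDHA + LDHB and SLC2A3 in SLC2A1 + SLC2A3, from the deposited FPKM of each library (points) with group means as bars, on axes from 0. The shares of HK1, ENO2 and SLC2A3 are above the control in all 8 knockdown libraries, and SLC2A3 reaches 47.8% in siURM1 cells.

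HIF1A had 84.1, 79.2 and 86.2 CPM in control libraries, 96.4, 98.8 and 90.8 in siNAE1, 81.8, 84.1 and 84.7 in siUBE2M, and 75.7 and 76.5 in siURM1 libraries. The siNAE1 libraries lay just above the control and those of siURM1 just below. It rose by 0.20 in siNAE1 cells (SE 0.07, adjusted p = 0.013), and was at 0.01 (adjusted p = 0.95) and -0.13 (adjusted p = 0.18) in siUBE2M and siURM1 cells. EPAS1, the gene of the alpha subunit HIF-2alpha, had 18.0, 16.4 and 20.0 CPM in control libraries, 18.6, 15.1 and 18.2 in siNAE1, 23.8, 26.4 and 23.5 in siUBE2M, and 17.4 and 14.2 in siURM1 libraries. Only the siUBE2M libraries were apart from the control, with a rise of 0.44 (SE 0.11, adjusted p = 0.0016), and the values in siNAE1 and siURM1 cells were -0.07 (adjusted p = 0.62) and -0.20 (adjusted p = 0.24).

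The prolyl hydroxylases EGLN1 and EGLN3, which start the degradation of HIF and are themselves its targets, differed. EGLN3 rose by 0.89, 0.90 and 0.75, from 5.06 to 7.31 CPM in control libraries to 9.72 to 11.8 CPM in the knockdown libraries. EGLN1 fell by 0.32 in siNAE1 cells and was at 0.07 (adjusted p = 0.38) and -0.03 (adjusted p = 0.79) in siUBE2M and siURM1 cells. SPTSSA overlaps EGLN3 on the same strand.

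NDRG1, a cytoplasmic protein induced by hypoxia, iron loss and other stresses, had the largest log2 fold change of the members in siNAE1 cells, though not in siUBE2M or siURM1 cells. It had 54.0, 47.3 and 50.2 CPM in control libraries, 335, 354 and 349 in siNAE1, 89.6, 91.5 and 96.6 in siUBE2M, and 147 and 137 in siURM1 libraries. The 4 groups did not overlap. The log2 fold changes were 2.77 (SE 0.07, adjusted p = 4.7e-25), 0.87 (SE 0.07, adjusted p = 3.6e-12) and 1.49 (SE 0.07, adjusted p = 7.6e-17), of which the siNAE1 and siURM1 values were called.

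ADM encodes adrenomedullin, a peptide that widens blood vessels. It had 5.36, 5.65 and 4.60 CPM in control libraries, 17.6, 16.1 and 20.0 in siNAE1, 11.5, 10.7 and 13.0 in siUBE2M, and 10.9 and 8.37 in siURM1 libraries. All knockdown libraries were above the control, and siUBE2M and siURM1 overlapped each other. ADM was called in siNAE1 cells (1.77, SE 0.15, adjusted p = 5.7e-12) and siUBE2M cells (1.17, SE 0.15, adjusted p = 1e-07), and rose by 0.89 in siURM1 cells. On log2(FPKM + 1) the siUBE2M value was 0.86, below the threshold.

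VEGFA, the vascular growth factor and a standard HIF target, went the other way. It had 214, 201 and 197 CPM in control libraries, 72.6, 66.8 and 68.8 in siNAE1, 92.4, 100 and 83.3 in siUBE2M, and 128 and 115 in siURM1 libraries. The 4 groups did not overlap, and siNAE1 was lowest. The log2 fold changes were -1.55 (SE 0.07, adjusted p = 6.5e-18) and -1.15 (SE 0.07, adjusted p = 1.6e-14), both called, and -0.74 (SE 0.08, adjusted p = 3.1e-09). ATF4, a factor of the amino acid response, is also known to drive VEGFA, and its part here was not tested.

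**Figure D4:**
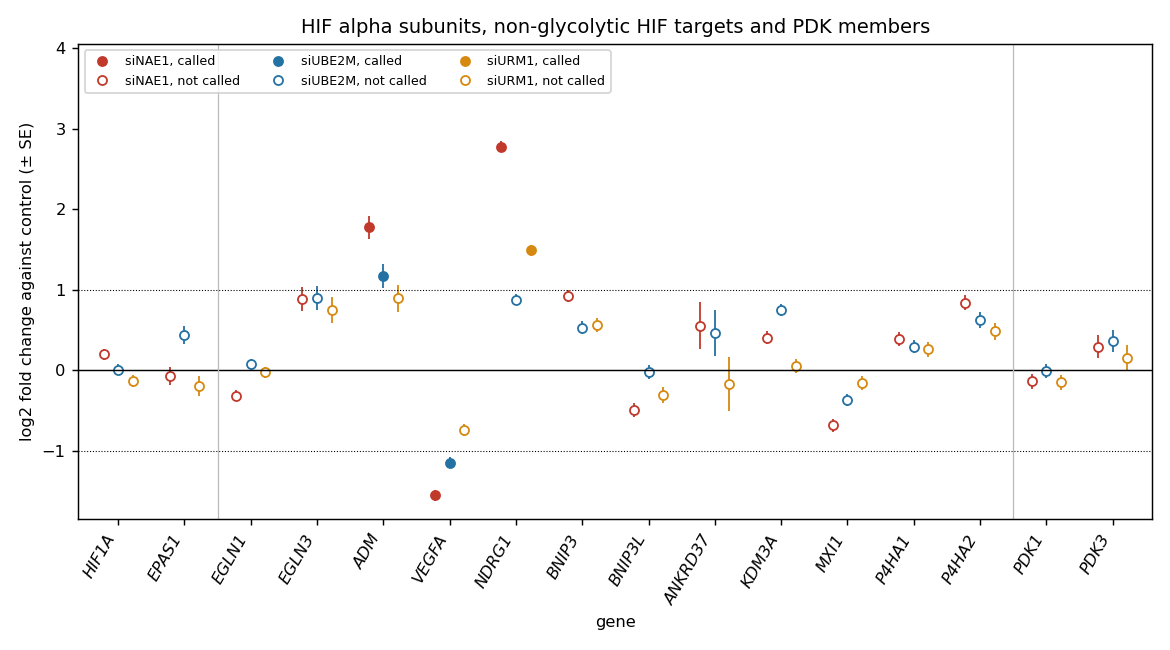
Log2 fold change against control (± SE, edgeR) of the HIF alpha subunit genes, 12 of the 13 non-glycolytic HIF targets (CA9 was not tested) and the pyruvate dehydrogenase kinases in siNAE1, siUBE2M and siURM1 cells. Filled points were called (adjusted p under 0.05 and an absolute value of at least 1, dotted lines), and NDRG1 and VEGFA lie at the ends of the range, at 2.77 and -1.55 in siNAE1 cells.

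Of the mitophagy receptors, BNIP3 rose by 0.92, 0.53 and 0.56, while BNIP3L fell by 0.50 in siNAE1 cells and by 0.31 in siURM1 cells and was at -0.02 in siUBE2M cells (adjusted p = 0.87). PNMA2 overlaps BNIP3L on the opposite strand. P4HA1 and P4HA2, subunits of the collagen prolyl hydroxylase, rose in each knockdown, by 0.26 to 0.39 and by 0.48 to 0.84. KDM3A, a histone demethylase, rose by 0.40 in siNAE1 cells and by 0.74 in siUBE2M cells and was at 0.05 in siURM1 cells (adjusted p = 0.7). MXI1, which opposes MYC, fell by 0.68 and 0.37 in siNAE1 and siUBE2M cells and was at -0.15 in siURM1 cells (adjusted p = 0.15). ANKRD37, at 1.59 to 3.70 CPM, did not pass in any knockdown, with values of 0.56, 0.46 and -0.18. The pyruvate dehydrogenase kinases, which keep pyruvate out of the mitochondrial cycle, stayed close to the control: PDK1 was at -0.14, -0.01 and -0.15 (adjusted p = 0.18, 0.93 and 0.22), and PDK3 was at 0.29 and 0.15 in siNAE1 and siURM1 cells and rose by 0.36 in siUBE2M cells (adjusted p = 0.032).

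The knockdowns were also compared with each other in the same fit. Between siNAE1 and siUBE2M cells, 24 members were higher in siNAE1 cells at an adjusted p-value under 0.05 (22.7% of all genes) and 6 lower (21.6%), and 3 were called, all higher (2.85%, with 4.99% called lower). These were NDRG1, by 1.90 (SE 0.07, adjusted p = 1.4e-20), ENO2, by 1.08 (SE 0.08, adjusted p = 5.3e-13), and SLC16A3, by 1.16 (SE 0.29, adjusted p = 0.0012). The SLC16A3 value was 0.89 without siUBE2M replicate 3, 0.30 on log2(FPKM + 1) and 0.96 on log2(FPKM + 0.1), all below the threshold. Of the glycolytic members 20 were higher in siNAE1 cells, 0 were lower and 3 did not pass (SLC2A3, ALDOA and LDHB), while of the non-glycolytic targets 3 were higher (NDRG1, ADM and BNIP3), near the share of all genes, and 5 lower. With an unadjusted p-value under 0.05, 32 members differed.

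Between siNAE1 and siURM1 cells, 23 members were higher in siNAE1 cells (19.5% of all genes) and 5 lower (19.1%), and 3 were called, all higher (3.34%, with 3.41% called lower). These were SLC2A1, by 1.29 (SE 0.09, adjusted p = 5.6e-13), NDRG1, by 1.29 (SE 0.07, adjusted p = 2.8e-15), and ENO2, by 1.15 (SE 0.09, adjusted p = 4.4e-12). SLC16A1 and SLC2A3 were lower in siNAE1 than in siURM1 cells, with log2 differences of -0.27 and -0.33. Between siUBE2M and siURM1 cells, 5 members were higher in siUBE2M cells (16.7% of all genes) and 11 lower (18.3%). None was called by edgeR or by DESeq2, where edgeR called 3.45% of all genes higher and 1.95% lower, and 18 members had an unadjusted p-value under 0.05. SLC2A1 was higher by 0.85 in siUBE2M than in siURM1 cells, and SLC16A1 was lower, with a log2 difference of -0.73.

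Of 10 genes for HIF control and the CUL2 ligase, HIF3A had at most 1 count, and of the 9 tested, 6 rose and 1 fell in siNAE1 cells, 3 rose and 2 fell in siUBE2M cells, and 2 rose and 2 fell in siURM1 cells. Of all genes, 27.6% rose and 27.1% fell in siNAE1 cells, 22.7% and 22.6% in siUBE2M cells, and 20.8% and 20.8% in siURM1 cells, so that the counts in siUBE2M and siURM1 cells lay near those shares. CUL2 itself was at -0.16, -0.06 and -0.09 (adjusted p = 0.1, 0.61 and 0.48). VHL, the subunit that binds HIF, fell by 0.48 in siNAE1 cells, and RBX1, the RING subunit, rose by 0.77, 0.22 and 0.52. ARNT2, a beta subunit gene, was the one called, at -1.07 in siURM1 cells (SE 0.10, adjusted p = 2.8e-10), and it fell by 0.79 in siUBE2M cells and rose by 0.24 in siNAE1 cells.

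Of 25 further HIF targets outside the 40, 23 were tested. In siNAE1 cells 13 rose and 4 fell, in siUBE2M cells 12 rose and 3 fell, and in siURM1 cells 11 rose and 2 fell, beside the same shares of all genes, with medians of 0.53, 0.25 and 0.18. The largest called values were those of HMOX1, the heme oxygenase that NRF2 also induces (2.10, 0.48 and 1.85), and TFRC, the transferrin receptor that iron supply also controls (1.84, 0.86 and 1.16). LOXL2, a collagen crosslinking enzyme, was at 0.40, 0.35 and 1.03, and CA12, a carbonic anhydrase, at 1.03, 0.37 and 0.18, with adjusted p = 0.072 and 0.48 for CA12 in siUBE2M and siURM1 cells. HILPDA, a lipid droplet protein, was called in siNAE1 and siURM1 cells, at 1.01 and 1.02, and was at 0.20 in siUBE2M cells (adjusted p = 0.099). DDIT4 and STC2, which ATF4 also induces, fell by 0.99 and 0.88 in siNAE1 cells, by 0.80 and 0.70 in siUBE2M cells and by 0.88 and 0.72 in siURM1 cells.

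Of 23 other genes of glucose and pyruvate use, 19 were tested, and their medians were 0.16, 0.03 and 0.27. In siNAE1 cells 8 rose and 5 fell, in siUBE2M cells 5 rose and 2 fell, and in siURM1 cells 9 rose and 2 fell. Over all genes, 27.6% rose and 27.1% fell in siNAE1 cells, 22.7% and 22.6% in siUBE2M cells, and 20.8% and 20.8% in siURM1 cells. The 5 that fell in siNAE1 cells and the 5 that rose in siUBE2M cells lay near these shares. LDHC, the testis lactate dehydrogenase, fell by 2.51, 1.22 and 2.50, and ENO3, the muscle enolase, fell by 0.76, 1.21 and 1.42. PFKFB1, the liver form of the PFKFB enzymes, had 18 to 29 counts in control libraries and 1 to 4 in siNAE1 libraries, a log2 fold change of -2.77 (SE 0.56, adjusted p = 9e-05). PDK4 fell by 1.42 in siNAE1 cells, where it had 8 to 17 counts per library. Of the 19, 2 were called higher in siNAE1 cells (5.3% of all genes) and 3 lower (8.61%). The 2 called higher were SLC2A4, the insulin-responsive glucose transporter, and SLC16A7, a monocarboxylate transporter. SLC2A4 had 1.32 to 2.23 CPM in control, 4.68 to 5.60 CPM in siNAE1 and 3.60 to 4.65 CPM in siUBE2M libraries, with log2 fold changes of 1.40 in siNAE1 and 1.07 in siUBE2M cells (adjusted p = 1.4e-05 and 0.00074), both called. In siURM1 cells SLC2A4 rose by 0.96 (SE 0.28, adjusted p = 0.0052), below the fold change threshold. SLC16A7 had 1.41 to 2.23 CPM in control and 2.87 to 5.80 CPM in siNAE1 libraries, a log2 fold change of 1.25 (SE 0.31, adjusted p = 0.001).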

How the data were processed

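Messenger RNA of 11 HEK293T libraries in 4 groups was analysed. Per the labels and the methods of the study, the authors used fastp for trimming, HISAT2 2.0.5 for alignment to GRCh38 and featureCounts 1.5.0-p3 for fragment counts per gene. Neither the annotation version nor the strand option is given in the sources used here. The authors deposited raw whole-number counts for 58735 genes, and FPKM values computed from the same counts, a listed gene length and a constant that was 0.961 to 1.07 of each library total. Gene coordinates were taken from the deposited table. FPKM was used to compare levels between genes.

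The tests used edgeR 4.0.16 under R 4.3.3 (filterByExpr, TMM, quasi-likelihood test, 1 fit with 4 groups), which tested 18368 genes at a biological coefficient of variation of 7.06%. A call needed an adjusted p-value (Benjamini-Hochberg, all genes tested) under 0.05 and a log2 fold change of 1 or more in size. With 2 libraries, siURM1 takes most of its spread from the other groups. Python 3.11.15 with pandas 2.3.3 gave the tables and matplotlib 3.10.9 the plots. The edgeR step was also run on simulated counts in which the changed genes were known. No 2 libraries held the same counts, since the closest pair differed in 26105 genes, and a floor of 3 counts was taken for detection, for counting error only.

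The members and lists were chosen with earlier results of these data known, and no list was tested as a set. Values per library are given for the targeted genes, HIF1A, EPAS1, each member called in any comparison, and the most abundant member per length of the hexokinase, phosphofructokinase, aldolase, enolase and lactate dehydrogenase steps; other members are given by their values or ranges. Of other lists, at most 4 called genes are named, apart from DDIT4, STC2, CUL2, VHL, RBX1, HILPDA, SLC2A4 and SLC16A7, chosen with their values in view.

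The alternatives were DESeq2 1.42.0, no fold change threshold, RLE scaling, all genes kept whatever their counts, a minimum of 10 counts in each library, fits of 2 groups alone, the replicate number as a block, glmTreat against a 1.2-fold change, limma 3.58.1 on log2(FPKM + 1) and log2(FPKM + 0.1), and leaving out each library. Leaving out members that overlap another counted gene was chosen after seeing the data. Sums of named processed pseudogenes were at most 1.01% of the summed CPM of any of the 16 members that have them.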

Additional observations from a re-analysis of the deposited data

Results flagged for a closer look

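Between knockdowns, 4 members were called in the edgeR fit, by the log2 values that follow. At an adjusted p-value under 0.05 alone, 30 members differed between siNAE1 and siUBE2M cells. By the same measure 28 differed between siNAE1 and siURM1 cells and 16 between siUBE2M and siURM1 cells. NDRG1 was higher in siNAE1 than in siUBE2M cells by 1.90 and than in siURM1 cells by 1.29, and it rose in all 3 knockdowns. ENO2 was higher in siNAE1 than in siUBE2M cells by 1.08 and than in siURM1 cells by 1.15, and it also rose in all 3. SLC16A3 was higher in siNAE1 than in siUBE2M cells by 1.16, at no more than 5.24 CPM in any library, and this value was 0.89 without siUBE2M replicate 3, 0.30 on log2(FPKM + 1) and 0.96 on log2(FPKM + 0.1), below the threshold. SLC2A1 was higher in siNAE1 than in siURM1 cells by 1.29, and it rose in the one and fell in the other.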

How the results depend on the processing

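Without the fold change threshold, the members called were 34 for siNAE1, 31 for siUBE2M and 28 for siURM1 against control, and 30, 28 and 16 for siNAE1 against siUBE2M, siNAE1 against siURM1 and siUBE2M against siURM1. With glmTreat they were 28, 19 and 21, and 23, 14 and 5 in the same order. With 1 library left out the counts were 11 to 13, 3 to 5 and 2 to 3, and 3 to 3, 3 to 4 and 0 to 0. The glycolytic medians then ranged from 0.70 to 0.82 in siNAE1, 0.30 to 0.43 in siUBE2M and 0.48 to 0.55 in siURM1 cells, and the non-glycolytic medians from 0.37 to 0.54, 0.43 to 0.58 and 0.11 to 0.20. Without the members that overlap another counted gene, the glycolytic median was 0.84 in siNAE1 cells and the non-glycolytic one 0.41 in siUBE2M cells. The glycolytic median in siURM1 cells was 0.47 with at least 10 counts in every library, 0.50 with 2 groups per fit and 0.47 on FPKM. The non-glycolytic median was 0.54 with no filter, 0.53 with DESeq2 and 0.36 on FPKM in siUBE2M cells, and 0.27 with no filter and 0.26 with DESeq2 in siURM1 cells. The cause of these shifts was not tested.

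Same-numbered libraries did not deviate together (correlations of -0.066 to 0.079 over 15 pairs), so the numbers were not taken to pair the samples. With the replicate number as a block, the called members were 12, 4 and 3 against control and 3, 3 and 0 between knockdowns, and the glycolytic median in siURM1 cells was 0.50. The alternatives were applied to the 25 member calls, and to HIF1A and EPAS1 in each knockdown (31 results in all). Of 620 values, 597 kept their side of the threshold, 23 fell short of it, and 0 of the calls reversed direction. A change of direction was not looked for in HIF1A and EPAS1, which were not called. Members outside these calls passed it when 1 library was left out: EGLN3 in siNAE1 and siUBE2M cells, PFKFB4 and SLC16A3 in siUBE2M cells, ADM in siURM1 cells, ALDOC between siNAE1 and siUBE2M cells, and ADM and SLC16A3 between siNAE1 and siURM1 cells.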
